A study of Mus musculus with 54 samples.

Results

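The genes described here are 3 sodium-dependent phosphate transporters (Slc34a2, Slc20a1, Slc20a2) and 3 alkaline phosphatases (Alpi, Akp3, Alppl2) of the mouse small intestine. They were picked by symbol and make up 6 of the 25229 gene symbols in each count file. Polyadenylated RNA was sequenced from ileum, jejunum and duodenum of females on day 7 of lactation (LF), age-matched virgin females (VF) and virgin males (VM). The mice ate RM1 diet during the experiment and RM3 diet while breeding. Each of the 9 groups had 6 libraries, and 52 of the 54 were used. Replicate 3 of the lactating jejunum and replicate 3 of the lactating duodenum were left out, so these groups have 5 libraries each. By its title the series is about growth of the mother's intestine in pregnancy and lactation; the comparisons here are between sections and between lactating and virgin females within each section. Strain and age are not given in the sources used here. The labels do not tie libraries to animals, so p-values measure the spread between libraries.

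Enterocytes take up dietary phosphate through transporters in the brush border that move it together with sodium, beside a passive route between cells. Slc34a2 encodes NaPi-IIb, the main sodium-coupled phosphate transporter of the mouse intestinal brush border. Slc20a1 and Slc20a2 encode PiT-1 and PiT-2, widely expressed transporters that supply cells with phosphate. Alkaline phosphatases of the gut are held on the brush border by a glycosylphosphatidylinositol (GPI) anchor and remove phosphate groups from nutrients, nucleotides and bacterial lipopolysaccharide. In the mouse, Akp3 encodes the duodenal intestinal enzyme, Alpi a second intestinal enzyme found along more of the gut, and Alppl2 the enzyme first described in embryos.

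The 3 alkaline phosphatase genes are neighbours on chromosome 1 (GRCm38, GENCODE M21). Alppl2 lies on the minus strand at chr1:87086694-87089928, Alpi on the minus strand at chr1:87098002-87101606 and Akp3 on the plus strand at chr1:87124973-87127912. The starts of Akp3 and Alpi are 23367 bases apart, and those of Alpi and Alppl2 are 11678 bases apart. The 300-base promoters, which run from upstream of each RefSeq start to 50 bases past it (GRCm38.p6), are shown because these neighbours had unlike profiles along the gut; they span chr1:87101557-87101856 (minus strand), chr1:87124704-87125003 (plus) and chr1:87089879-87090178 (minus). Capitals mark the 2 runs of at least 10 bases common to the 3 promoters:
Alpi: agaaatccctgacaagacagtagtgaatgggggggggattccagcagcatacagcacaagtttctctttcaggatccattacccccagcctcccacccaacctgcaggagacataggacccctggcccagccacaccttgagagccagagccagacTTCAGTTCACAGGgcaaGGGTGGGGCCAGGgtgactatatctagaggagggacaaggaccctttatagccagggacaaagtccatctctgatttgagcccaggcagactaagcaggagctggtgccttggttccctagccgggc
Akp3: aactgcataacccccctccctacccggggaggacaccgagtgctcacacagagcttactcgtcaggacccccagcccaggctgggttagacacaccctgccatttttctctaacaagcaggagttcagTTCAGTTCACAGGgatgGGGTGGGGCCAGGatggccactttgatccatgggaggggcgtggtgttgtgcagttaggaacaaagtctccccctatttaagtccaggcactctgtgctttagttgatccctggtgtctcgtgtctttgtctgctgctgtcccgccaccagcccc
Alppl2: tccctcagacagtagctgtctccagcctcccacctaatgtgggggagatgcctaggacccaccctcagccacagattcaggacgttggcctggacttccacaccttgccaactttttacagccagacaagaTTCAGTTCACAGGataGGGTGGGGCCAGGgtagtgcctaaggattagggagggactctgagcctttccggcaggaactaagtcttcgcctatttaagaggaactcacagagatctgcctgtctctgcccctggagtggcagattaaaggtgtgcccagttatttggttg
The first run, TTCAGTTCACAGG, occurred on either strand in 10 of the 32851 RefSeq mouse promoters of this length (0.0304%), and the second, GGGTGGGGCCAGG, in 16 (0.0487%). The runs do not overlap. The letters CAAAGTCCA, a form of the site of HNF4, a nuclear receptor of enterocytes, stood at -19 to -11 of Alpi alone among the 3. They occurred in 156 of all promoters (0.475%), both strands searched. Only exact matches were counted, and other forms of the HNF4 site were not looked for in any promoter. The phosphate transporter genes lie elsewhere: Slc34a2 on the plus strand at chr5:53038081-53071664, Slc20a1 on the plus strand at chr2:129198764-129211616, and Slc20a2 on chromosome 8.

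Reads assigned to genes ran from 18479722 to 27604041 per library. The section labels of the 52 libraries fitted their defining markers: Pdx1, a transcription factor of the duodenum, was between 17.9 and 86.1 CPM (reads scaled to library size) in duodenal libraries and at most 0.277 CPM in the others, and Fabp6, the ileal bile acid binding protein, was at least 1173 CPM in the ileum and at most 13.6 CPM elsewhere. Of the left-out libraries, the lactating duodenum library had 109945 CPM of the liver gene Alb, and the lactating jejunum library had 20.3 CPM of Pdx1. Pancreatic markers (Ctrb1, Prss2, Cpa1, Pnlip) varied widely between duodenal libraries, summing to between 0.148 and 8523 CPM in lactating and between 1.02 and 5258 CPM in virgin females. Levels below are CPM with edgeR's TMM scaling factors taken over the 52 libraries. Differences are log2 fold changes ± SE from edgeR's quasi-likelihood F test, called where the Benjamini-Hochberg adjusted p over all genes tested was under 0.05.

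**Figure D1:**
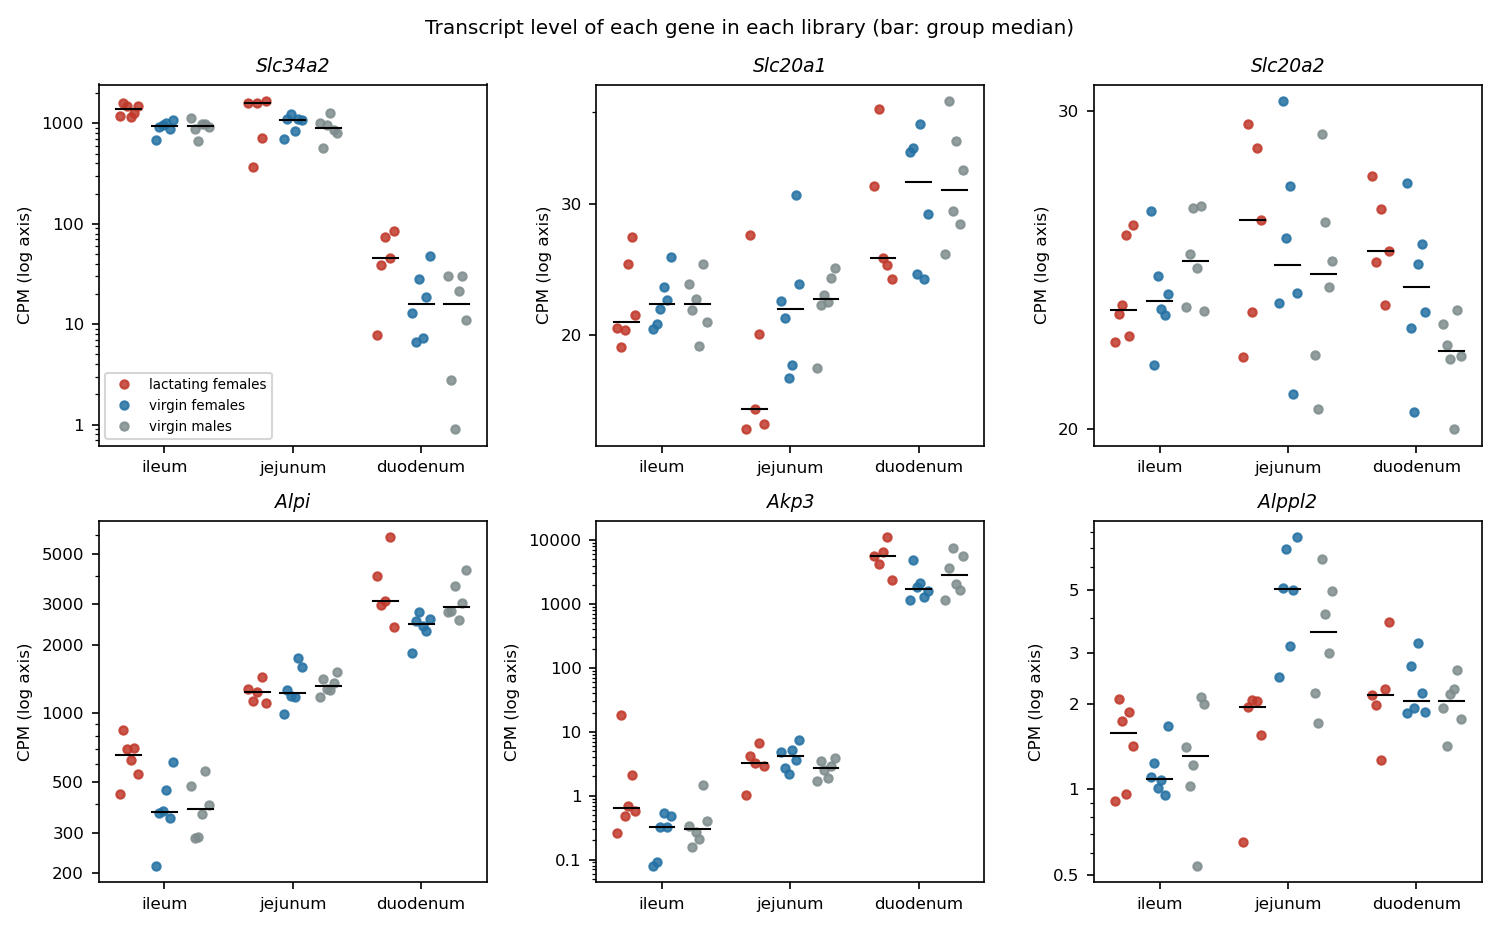
Level of each gene in each library (CPM, log axis) by section and state; black bars are group medians. Slc34a2 is high in ileum and jejunum and low in the duodenum, Akp3 is at least 1157 CPM in each duodenal library and at most 18.3 CPM in the other sections, and Slc20a2 lies between 19.9 and 30.4 CPM throughout.

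Per kilobase of exon, Slc34a2 was the most abundant of the transporters in the ileum and jejunum. Its mean level per kilobase in virgin females was 185 CPM in the ileum and 202 CPM in the jejunum, against 3.99 and 3.98 CPM for Slc20a1 and 3.82 and 4.06 CPM for Slc20a2. In the duodenum of virgin females the order was Slc20a1 (5.57 CPM per kilobase), Slc34a2 (4.04) and Slc20a2 (3.85). The duodenal Slc34a2 libraries spread widely enough to span both of the others. Among the phosphatases of virgin females, Alpi (1031 CPM per kilobase) and Akp3 (1019) were alike in the duodenum, while Alpi stood far above Akp3 and Alppl2 in the jejunum (569 against 2.06 and 2.24 CPM per kilobase) and ileum (170.2 against 0.146 and 0.522).

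Slc34a2 was high in the ileum and jejunum and low in the duodenum. In virgin females its 6 ileal libraries held between 690.4 and 1086 CPM (median 943), the 6 jejunal libraries between 702 and 1249 CPM (median 1090.2) and the 6 duodenal libraries between 6.65 and 48.1 CPM (median 15.7). Ileum and jejunum overlapped, and both lay wholly above the duodenum. Slc34a2 rose by 5.52 ± 0.41 (log2 fold change, ileum over duodenum, adjusted p = 1.63e-09, edgeR) and by 5.64 ± 0.42 (jejunum over duodenum, adjusted p = 9.20e-09, edgeR). The ileum and jejunum of virgin females did not differ in Slc34a2 beyond their spread (-0.13 ± 0.34, adjusted p = 0.775, edgeR). Of the 5 enterocyte markers (Vil1, Krt20, Apoa4, Fabp1, Fabp2), 4 also rose in the jejunum over the duodenum (median log2 fold change 0.82), while none rose and 2, the lipid-handling genes Apoa4 and Fabp1, fell in the ileum relative to the duodenum. Their summed level in virgin females was between 5488 and 8302 CPM in the ileum, between 35335 and 61075 CPM in the jejunum and between 15165 and 26726 CPM in the duodenum. The part of cell type markers in the section results was not tested, and in bulk tissue more cells of a type and more RNA per cell cannot be told apart. The same order of Slc34a2 held in virgin males (5.87 ± 0.58 for ileum and 5.82 ± 0.58 for jejunum over duodenum) and in lactating females (4.78 ± 0.51 and 4.57 ± 0.51), each called.

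Of the PiT genes, Slc20a2 was nearly level along the small intestine, while Slc20a1 was modestly higher in the duodenum. Slc20a1 in virgin females averaged 22.3 ± 1.9 CPM in the ileum, 22.2 ± 4.8 CPM in the jejunum and 31.1 ± 6.3 CPM in the duodenum (SD, n = 6 each). It fell by 0.48 ± 0.14 on the log2 scale in the ileum and by 0.49 ± 0.14 in the jejunum relative to the duodenum (adjusted p = 0.00857 and 0.0108, edgeR), although the groups overlapped in both cases. Of 4 tested immune markers, Ptprc, Cd3e and Cd79a also fell in both comparisons (median of the 4: -1.07 in the ileum and -1.01 in the jejunum relative to the duodenum), whereas Itgam rose in the ileum. Immune markers summed to between 59.6 and 99.9 CPM in the ileum, between 43.9 and 81.2 CPM in the jejunum and between 55.9 and 286 CPM in the duodenum of virgin females. Immune markers were not alone: both enteroendocrine markers (Chga and Chgb), all 4 liver markers and the pancreatic marker Ctrb1 fell in both comparisons too. The Paneth markers Lyz1 and Defa24 and the goblet marker Muc2 rose in both. In virgin males the falls of Slc20a1 were 0.54 ± 0.11 and 0.55 ± 0.11 with no overlap. In lactating females Slc20a1 fell in the jejunum relative to the duodenum (-0.63 ± 0.18, adjusted p = 0.0139, edgeR), whereas the value for ileum over duodenum was -0.37 ± 0.17 (adjusted p = 0.0727, edgeR). Slc20a2 averaged between 22.0 and 25.9 CPM in all 9 groups. It was called in 1 of the 9 section comparisons, ileum over duodenum of virgin males, at 0.19 ± 0.07 (adjusted p = 0.0275, edgeR), and that call was lost with no count filter, with unstranded counts, in 1 fit of the 52 libraries and in 8 of 12 fits without 1 library, at values down to 0.14.

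Akp3 was a transcript of the duodenum. Virgin females had between 0.0792 and 0.538 CPM of Akp3 in the ileum (2 to 13 reads a library), between 2.16 and 7.55 CPM in the jejunum and between 1157 and 4795 CPM in the duodenum. No 2 sections overlapped. Relative to the duodenum, Akp3 was 494-fold lower in the jejunum (log2 -8.95 ± 0.47, adjusted p = 8.83e-11, edgeR) and 6760-fold lower in the ileum (log2 -12.72 ± 0.56, adjusted p = 9.17e-13, edgeR). Ileum over jejunum was -3.78 ± 0.49 (adjusted p = 3.88e-06, edgeR). Virgin males had like steps, -10.35 ± 0.58 for jejunum over duodenum, -12.84 ± 0.65 for ileum over duodenum and -2.49 ± 0.59 for ileum over jejunum, each called.

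Alpi fell in smaller steps. Virgin females had between 215 and 614 CPM of Alpi in the ileum, between 998 and 1747 CPM in the jejunum and between 1830 and 2789 CPM in the duodenum, again with no overlap between sections. The log2 fold changes were -2.59 ± 0.21 for ileum over duodenum, -1.74 ± 0.20 for ileum over jejunum and -0.86 ± 0.20 for jejunum over duodenum (adjusted p = 3.61e-09, 8.82e-07 and 0.00214, edgeR). With the fall of Alpi in the ileum relative to the jejunum, all 5 enterocyte markers fell (median -2.44), while 2 of 4 smooth muscle markers (Acta2 and Tagln), both fibroblast markers (Dcn and Col1a1) and the endothelial marker Pecam1 rose. In the jejunum over the duodenum Alpi fell, whereas 4 of the 5 enterocyte markers rose. Alpi also fell in each of the same 3 steps in lactating females (-2.49 ± 0.21, -0.93 ± 0.20 and -1.56 ± 0.22) and in virgin males (-2.99 ± 0.17, -1.73 ± 0.16 and -1.26 ± 0.16).

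Alppl2, the least abundant phosphatase in the duodenum, had its highest mean level in the jejunum of virgin mice. Virgin females had between 0.959 and 1.67 CPM of Alppl2 in the ileum, between 2.47 and 7.65 CPM in the jejunum and between 1.86 and 3.26 CPM in the duodenum, from 24 to 164 reads a library. Jejunum and duodenum overlapped, while the ileum lay below both. Alppl2 rose by 1.14 ± 0.24 in the jejunum over the duodenum (adjusted p = 0.00135, edgeR) and fell by 2.09 ± 0.26 in the ileum relative to the jejunum (adjusted p = 2.00e-06, edgeR) and by 0.95 ± 0.26 relative to the duodenum (adjusted p = 0.00482, edgeR). The jejunal rise was also called in virgin males (0.88 ± 0.31, adjusted p = 0.0224, edgeR), where it was lost in 3 of 12 fits without 1 library and with library totals alone (0.66). In lactating females it was absent from the calls: jejunum over duodenum was -0.46 ± 0.32 (adjusted p = 0.307) and ileum over jejunum -0.14 ± 0.31 (adjusted p = 0.763, edgeR).

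Section calls were common among all genes, which sets the scale for these counts. In virgin females 5 of the 6 genes were called for jejunum over duodenum, where 37.2% of 15154 genes were called, 3 for ileum over jejunum (48.0%) and 5 for ileum over duodenum (47.1%). In lactating females the counts were 4 for jejunum over duodenum (27.4% of 15080 genes), 1 for ileum over jejunum (37.2%) and 3 for ileum over duodenum (53.3%). In virgin males they were 5 (50.1% of 15112 genes), 3 (64.2%) and 5 (65.2%). The fold changes of Akp3 and Slc34a2 had the greatest sizes among the 6 genes in each comparison with the duodenum.

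**Figure D2:**
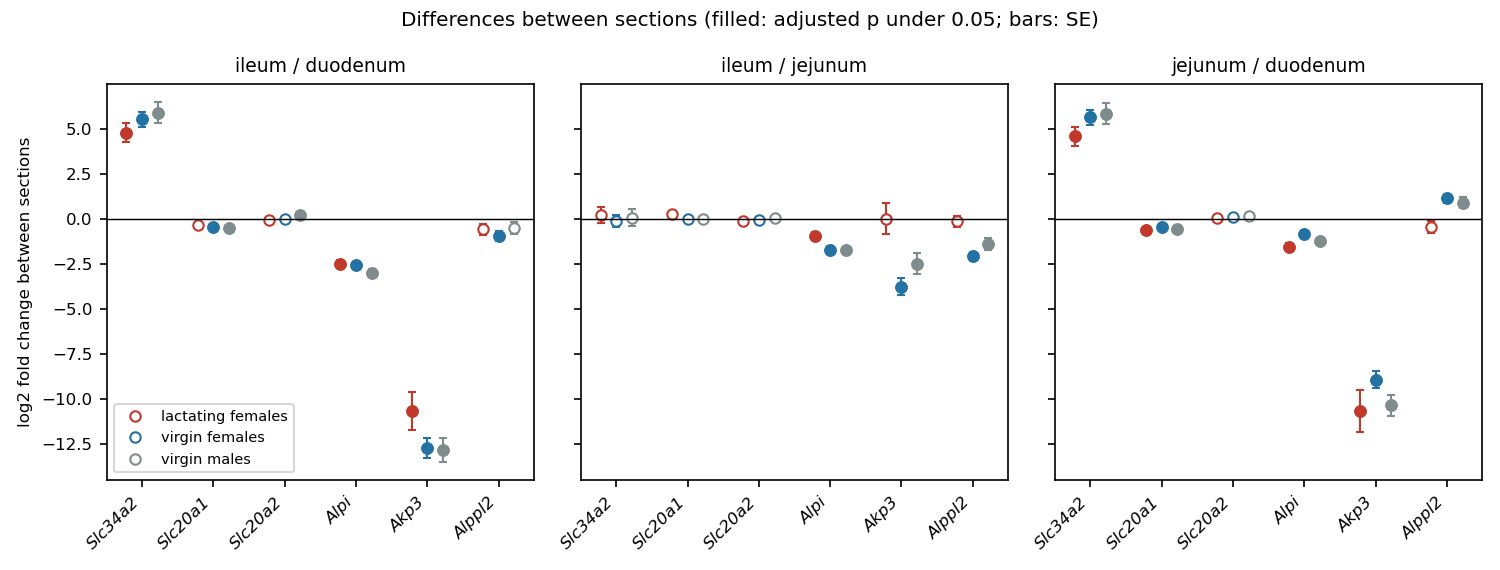
Log2 fold changes between sections (y axis, ± SE) for each gene in lactating females, virgin females and virgin males; filled points are called. Slc34a2 lies between 4.57 and 5.87 over the duodenum, Akp3 between -12.84 and -8.95, and Slc20a1 and Slc20a2 stay between -0.63 and 0.26.

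Other genes of phosphate handling also differed between sections in virgin females. Slc34a3, a relative of Slc34a2 best known from the kidney, was low throughout (2.40 CPM in the jejunum, 0.0839 CPM in the duodenum) but rose by 4.78 ± 0.39 in the jejunum over the duodenum. Of the other phosphate carriers tested, 2 of 5 rose and none fell in the jejunum over the duodenum, and 1 rose and 4 fell in the ileum over the jejunum, among them Slc17a4 (-1.29 ± 0.18) and the mitochondrial carrier Slc25a3 (-0.63 ± 0.15). Brush border partners of sodium phosphate transporters rose in 4 of 7 and fell in 2 of 7 in the jejunum over the duodenum (median 0.74, against -0.05 for all genes), and the scaffold Pdzk1 was among the risers at 1.18 ± 0.26. In the ileum over the jejunum 5 of the 7 partners fell, led by the sodium-proton exchanger Slc9a3 (-3.47 ± 0.24), and 2 rose (median -0.87, against 0.06 for all genes); the 5 enterocyte markers fell in the same comparison. S100g, the vitamin D dependent calcium-binding protein calbindin-D9k, fell by 4.69 ± 0.56 in the jejunum relative to the duodenum, with Kl and Atp2b1 the other 2 of the 8 tested genes of the phosphate hormone and vitamin D list to fall.

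Other surface phosphatases and nucleotidases had profiles of several kinds in virgin females. Enpp7, the intestinal alkaline sphingomyelinase, averaged 9.67 CPM in the ileum, 1415 CPM in the jejunum and 25.7 CPM in the duodenum, and rose by 5.78 ± 0.63 in the jejunum over the duodenum. Enpp3 averaged 4.75 CPM in the ileum, 548 CPM in the jejunum and 580.3 CPM in the duodenum. Of the 12 genes, 3 rose and 1 fell in the jejunum over the duodenum, 2 rose and 7 fell in the ileum over the jejunum, and 1 rose and 6 fell in the ileum over the duodenum. The 14 genes for making and attaching GPI anchors moved little: 1 rose and 3 fell, 1 rose and 2 fell, and 1 rose and 4 fell in the same order of comparisons, with no called fold change of over 0.59 in size on the log2 scale. Among 12 enterocyte transcription factors, Gata4, known for proximal intestinal identity, fell by 7.63 ± 0.17 in the ileum relative to the jejunum and stood at 0.645 CPM in the ileum, 128 CPM in the jejunum and 133 CPM in the duodenum. Counts for that list were 5 higher and none lower, 1 higher and 7 lower, and 6 higher and 5 lower.

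In the ileum, Slc34a2 rose in lactating females. The lactating libraries held 1176, 1583, 1487, 1145, 1268 and 1484 CPM of Slc34a2 (replicates 1 to 6), against 690.4, 928, 958, 1010.3, 882 and 1086 CPM in virgin females. Each lactating library was above each virgin female library. Slc34a2 was 1.44-fold higher, at 0.52 ± 0.12 on the log2 scale (adjusted p = 0.0302, edgeR); virgin females and males were alike (0.01 ± 0.12, adjusted p = 0.989, edgeR). It was the only one of the 6 genes called in the ileum, where 2.16% of 15106 genes were called. Among fits with no term for replicate number, the call was lost in 6 of 12 without 1 library, namely lactating replicates 2, 3 or 6 or virgin female replicates 1, 3 or 5 (adjusted p up to 0.0763), and in 1 fit of the 52 libraries (adjusted p = 0.697), while the log2 fold change stayed between 0.44 and 0.57 in each setting and fit.

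The summed level of enterocyte markers was also higher in this comparison. The 5 enterocyte markers summed to between 9962 and 11976 CPM in lactating ileum and between 5488 and 8302 CPM in virgin female ileum, with 1 of the 5, the fatty acid binding protein Fabp2, called higher (0.97 ± 0.21, adjusted p = 0.0214, edgeR). Ileal Slc10a2, the bile acid transporter, and Sis, sucrase-isomaltase, had medians of 1072 and 1132 CPM in lactating females, against 790.2 and 659.7 CPM in virgin females. Neither was called, nor was any tested crypt, Paneth, goblet, enteroendocrine or tuft marker (edgeR). Lower in lactating ileum were 2 of 3 neuron and glia markers (Elavl4 and Snap25), the endothelial marker Pecam1 and 1 of 4 tested immune markers (Itgam). The part of these shifts in the Slc34a2 result was not tested.

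Alpi and Akp3 in the ileum were not called. Alpi had 444, 847, 698, 623, 709 and 545 CPM in lactating females (replicates 1 to 6), against 215, 368, 376, 465, 348 and 614 CPM in virgin females. Virgin female replicates 4 and 6 reached into the lactating range, and the log2 fold change was 0.67 ± 0.21 (adjusted p = 0.0899, edgeR; 0.0331 with DESeq2). Akp3 averaged 3.73 ± 7.15 CPM in lactating and 0.306 ± 0.191 CPM in virgin female ileum (SD, n = 6 each). Lactating replicate 2 alone had 18.3 CPM of Akp3, from 396 reads, and the other lactating libraries had between 0.261 and 2.09 CPM. The log2 fold change of 3.50 ± 0.96 (adjusted p = 0.0615, edgeR; 0.00658 with DESeq2) dropped to 1.36 without that library (adjusted p = 0.267). In the same library the duodenal markers Pdx1 and Tmprss15 stood at 0.277 and 0.507 CPM, the highest of the 18 ileal libraries, as did Lct at 5.07 CPM; their part in the Akp3 value was not tested. With that library lactating females had a log2 fold change of 0.01 ± 0.84 for ileum over jejunum in Akp3, and without it the value was -2.14 and was called (adjusted p = 0.00733).

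In the jejunum, Alppl2 was the gene that changed with lactation. It had 0.655, 1.94, 2.06, 2.04 and 1.56 CPM in lactating females (replicates 1, 2, 4, 5 and 6, 12 to 43 reads), against 2.47, 5.07, 6.98, 3.19, 4.99 and 7.65 CPM in virgin females (42 to 164 reads). The groups did not overlap. Alppl2 was 3.09-fold lower in lactating females (log2 -1.63 ± 0.37, adjusted p = 0.0417, edgeR), the only one of the 6 genes called where 1.31% of 14783 genes were. Virgin males ranged between 1.70 and 6.44 CPM and reached into the lactating range. The call stood near the threshold: it was lost in 9 of 11 fits without 1 library, that is without any lactating library or without virgin female replicate 2, 3, 5 or 6, with library totals alone (adjusted p = 0.0565) and with no count filter (adjusted p = 0.0600). The log2 fold changes in the fits that lost it lay between -1.70 and -1.41.

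The rest of the jejunal values were not called. Slc34a2 had 1580.4, 369, 1586, 712 and 1674 CPM in lactating females (replicates 1, 2, 4, 5 and 6), against 702, 1095, 1249, 842, 1107 and 1085 CPM in virgin females. Lactating libraries fell on both sides of the virgin range, 3 above it and 1 below it. The log2 fold change was 0.20 ± 0.30 (adjusted p = 0.823, edgeR). The 2 lactating libraries with the least Slc34a2, replicates 2 and 5, had the most Akp3 of that group, at 4.11 and 6.78 CPM. Alpi (-0.12 ± 0.12), Akp3 (-0.27 ± 0.37), Slc20a1 (-0.27 ± 0.16) and Slc20a2 (0.02 ± 0.12) had adjusted p of at least 0.464 (edgeR). No cell type marker was called in this comparison. The ileal markers Fabp6 and Slc10a2 summed to between 0.815 and 4.27 CPM in lactating jejunum and between 2.64 and 27.7 CPM in virgin female jejunum, and their relation to the Alppl2 value was not tested.

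**Figure D3:**
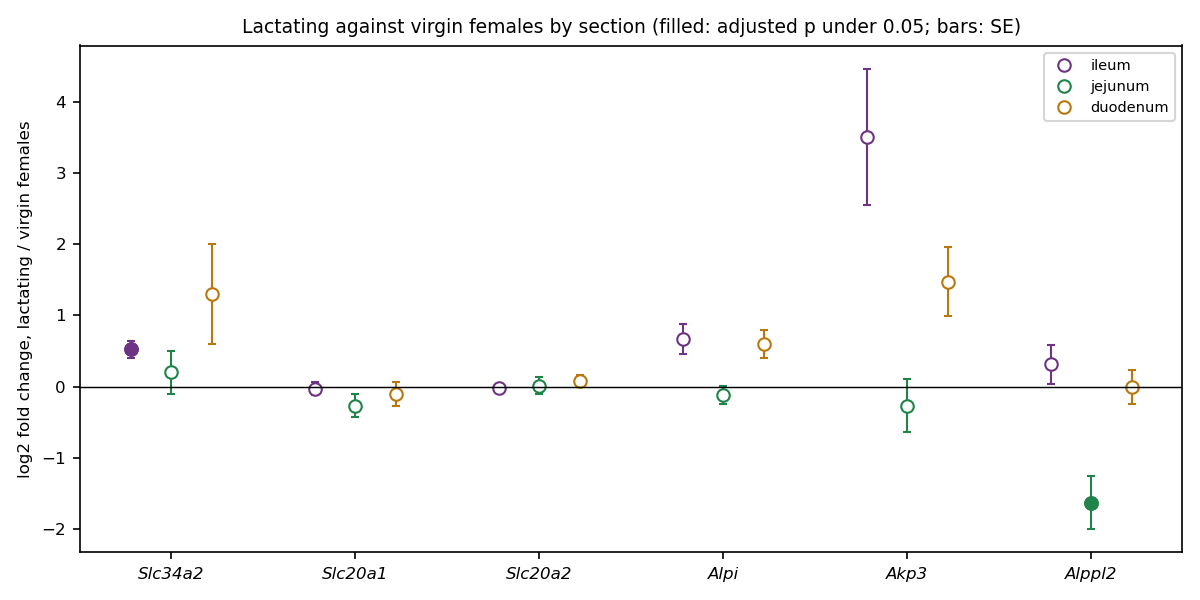
Log2 fold change of lactating over virgin females (y axis, ± SE) for each gene in ileum, jejunum and duodenum; filled points are called. The filled points are Slc34a2 in the ileum at 0.52 and Alppl2 in the jejunum at -1.63, and the Akp3 value in the ileum, at 3.50, has an SE of 0.96.

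In the duodenum, none of the 6 genes was called, and 0.00662% of 15116 genes were (1 gene; 1287 had an unadjusted p under 0.05, and DESeq2 called 103). Akp3 had the greatest log2 fold change of the 6. Its lactating libraries held 5671, 4166, 6559, 11004 and 2373 CPM (replicates 1, 2, 4, 5 and 6), against 1157, 4795, 1853, 2154, 1268 and 1603 CPM in virgin females. Of the lactating libraries 3 exceeded every virgin female library, and virgin female replicate 2 lay within the lactating range. The log2 fold change was 1.47 ± 0.48 (unadjusted p = 0.00695, adjusted p = 0.339, edgeR). Alpi ranged between 2378 and 5880 CPM in lactating and between 1830 and 2789 CPM in virgin female duodenum (0.60 ± 0.20, adjusted p = 0.338, edgeR). Slc34a2 held 7.73, 38.4, 74.2, 45.8 and 85.6 CPM in lactating and 12.8, 6.65, 27.9, 7.36, 18.7 and 48.1 CPM in virgin females, a log2 fold change of 1.31 ± 0.70 (adjusted p = 0.653, edgeR). The other 3 lay between -0.10 and 0.08.

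Akp3 tracked Pdx1 from library to library. Over the 17 duodenal libraries of the 3 states, log2 CPM of Akp3 and Pdx1 had a Pearson r of 0.952 and a Spearman rho of 0.956 (permutation p = 1e-05 each, the smallest that 100000 resamples can give; 6e-05 for r after Benjamini-Hochberg adjustment over 6 relations). It was 0.954 within groups and 0.947 without the 2 libraries farthest in Pdx1. Median Pdx1 was 57.3 CPM in lactating, 25.1 CPM in virgin female and 29.1 CPM in virgin male duodenum, so it was higher in the group with more Akp3, and its part in the Akp3 value was not tested. Alpi followed Akp3 less closely (r = 0.786, rho = 0.725, permutation p = 7e-05 and 0.00138, adjusted p = 0.00021 for r; 0.690 without the 2 farthest libraries). Slc34a2 and Akp3 gave r = -0.244 and rho = -0.142 over the 17 libraries (permutation p = 0.345 and 0.586), and -0.631 within groups. Without the 2 farthest libraries this pair gave r = 0.014. Tmprss15, the other duodenal marker, followed Akp3 less closely than Pdx1 did (r = 0.619, permutation p = 0.00816, adjusted p = 0.0163, and 0.650 without the 2 farthest libraries). Pdx1 and Slc34a2 gave r = -0.241 (permutation p = 0.355), -0.641 within groups and -0.638 without the 2 farthest libraries. Slc20a1 and Akp3 gave r = 0.088 (permutation p = 0.733), and 0.009 without the 2 farthest libraries. These 6 relations were chosen after the values were seen.

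**Figure D4:**
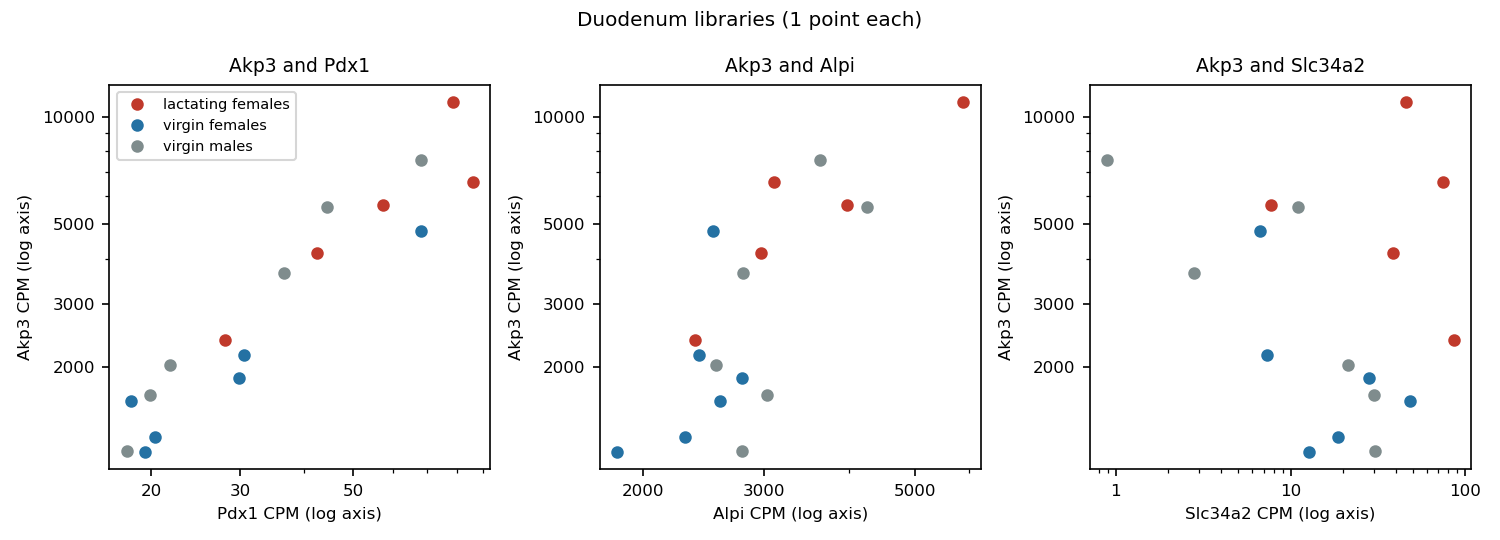
Akp3 against Pdx1, Alpi and Slc34a2 in the 17 duodenal libraries (CPM, log axes, 1 point a library, coloured by state). Akp3 climbs with Pdx1 in all 3 states (r = 0.952) and shows no single line with Slc34a2 (r = -0.244).

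Shares within each family do not depend on how libraries are scaled. Akp3 made up 60.0% ± 7.0 of the reads of the 3 phosphatase genes in lactating duodenum (n = 5) and 44.2% ± 11.1 in virgin female duodenum (SD, n = 6; exact permutation test, 2-sided p = 0.0303, adjusted p = 0.0779 over the 18 shares tested). Alppl2 made up 0.134% ± 0.048 in lactating (n = 5) and 0.375% ± 0.133 in virgin female jejunum (n = 6; exact permutation p = 0.00433, adjusted p = 0.0195). The groups did not overlap in that share. Slc34a2 made up 96.7% ± 0.6 of the reads of the 3 transporter genes in lactating ileum and 95.2% ± 0.8 in virgin female ileum (n = 6 each; exact permutation p = 0.00216, adjusted p = 0.0195). Each of these shares moved the way the level of its gene did, but they come from the same reads and are no separate check. The shares of a family add up to the whole. Those of Slc20a1 and Slc20a2 accordingly fell in lactating ileum (adjusted p = 0.0195 each, exact permutation test).

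**Figure D5:**
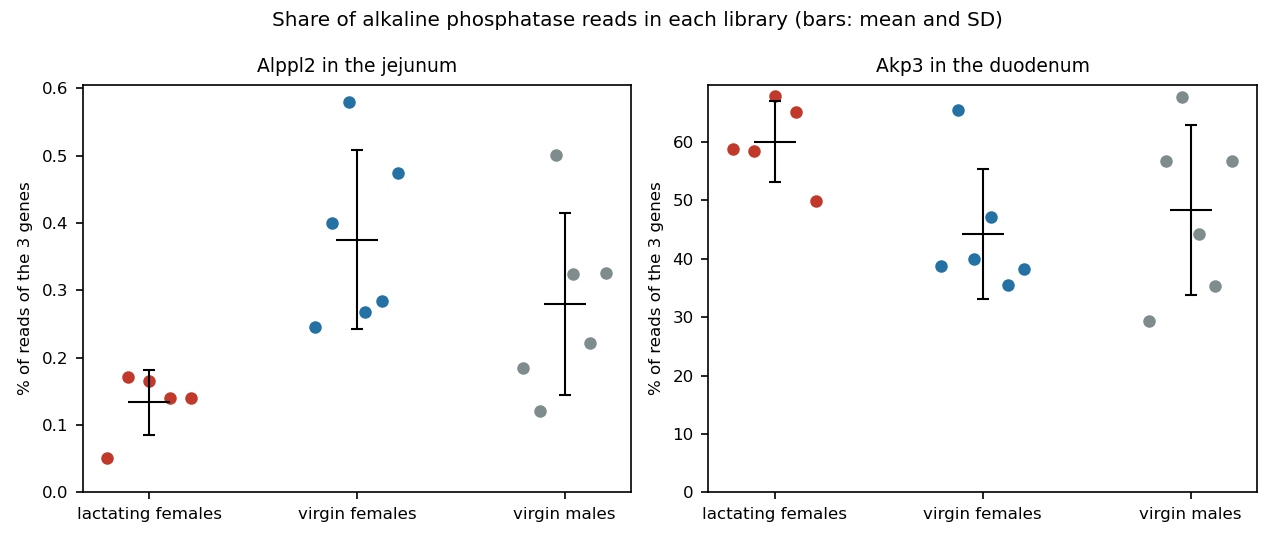
Percent of the reads of Alpi, Akp3 and Alppl2 that came from Alppl2 in the jejunum (left) and from Akp3 in the duodenum (right), 1 point a library, with mean and SD, for lactating females, virgin females and virgin males. Lactating jejunum lies at 0.134% and virgin female jejunum at 0.375% on average; lactating duodenum at 60.0% and virgin female duodenum at 44.2%.

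No difference of the lactation effect between sections was called for the 6 genes. The fit of the 34 female libraries called none of 15637 genes for jejunum minus duodenum (0.0%; 592 had an unadjusted p under 0.05, and DESeq2 called 6), 4 for ileum minus jejunum (0.0256%) and 11 for ileum minus duodenum (0.0703%). Alppl2 came nearest: its lactation effect differed by 1.94 ± 0.41 between ileum and jejunum (adjusted p = 0.0747, edgeR; 0.00283 with DESeq2). The Slc34a2 effect in the ileum was therefore not shown to differ from those in the jejunum (0.31 ± 0.58, adjusted p = 0.958) or the duodenum (-0.77 ± 0.58, adjusted p = 1.00, edgeR).

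Sex left the 6 genes uncalled in every section. Of all genes 0.0993% were called between virgin females and virgin males in the ileum, 0.0676% in the jejunum and 0.0331% in the duodenum. The members' log2 fold changes lay between -0.75 (Akp3 in the duodenum, ± 0.46) and 0.66 (Akp3 in the jejunum, ± 0.36), with adjusted p of at least 0.601 (edgeR). Slc34a2 in the ileum averaged 926 ± 135 CPM in virgin females and 930 ± 153 CPM in virgin males (SD, n = 6 each).

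Few other genes of phosphate handling changed with lactation. In the ileum S100g averaged 15.8 ± 15.3 CPM in lactating females, against 3.37 ± 1.28 CPM in virgin females (SD, n = 6 each). Its log2 fold change was 2.20 ± 0.52 (adjusted p = 0.0326, edgeR), the 1 call among 7 tested genes of the phosphate hormone and vitamin D list. The SD in lactating ileum was nearly as large as the mean, and fits without 1 library were not examined for S100g. This gene was also lower in the ileum than in the duodenum of virgin females. Lactating ileum replicate 2 had the most Pdx1 and Tmprss15 of the ileal libraries, and its part in the S100g value was not tested. Ezr, the linker ezrin between membrane and actin, rose by 0.57 ± 0.12 (adjusted p = 0.0192), 1 of 7 brush border partners, whose median was 0.31 against -0.02 for all genes. In the jejunum Slc17a4, a phosphate and organic anion carrier, fell by 0.76 ± 0.16 (adjusted p = 0.0349; 1 of 4 tested), Pigm of GPI anchor synthesis fell by 0.39 ± 0.08 (adjusted p = 0.0354; 1 of 14), and Thrb, a thyroid hormone receptor, fell by 0.55 ± 0.10 (adjusted p = 0.0211; 1 of 12, edgeR). None of the 6 lists had a called gene in the duodenum, and none of the 12 other surface phosphatases and nucleotidases was called in any section. Of all genes tested, 2.16% were called in the ileum, 1.31% in the jejunum and 0.00662% in the duodenum, so lists of this size would hold few calls or none at that background. The medians of the surface phosphatases and nucleotidases were 0.21 in the ileum, 0.19 in the jejunum and 0.09 in the duodenum.

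The most abundant genes of the lists without a call show the size of the differences there. In the ileum the 8 such genes (Slc25a3, the phosphate exporter Xpr1, Entpd5, Acp5, Pigt, Pigs, Hnf4a and Maf) had log2 fold changes of lactating over virgin females between -0.01 ± 0.07 (Hnf4a) and 0.48 ± 0.13 (Entpd5, adjusted p = 0.056, edgeR). In the jejunum the 6 such genes (the vitamin D receptor Vdr, its partner Rxra, Ezr, the scaffold Slc9a3r1, Enpp7 and Enpp3) lay between -0.32 ± 0.12 (Vdr) and 0.46 ± 0.28 (Enpp3). In the duodenum the calcium pump Atp2b1 had the greatest value, 1.20 ± 0.29 (adjusted p = 0.167, edgeR), and Slc17a4 the lowest, -0.61 ± 0.20. Vdr, Slc25a3, Ezr, Slc9a3r1, Enpp3, Entpd5, Pigt, Pigs, Hnf4a and Hnf4g lay between -0.07 and 0.40 there.

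Across the 52 libraries each gene had its own nearest neighbours in profile, by Pearson correlation of log2 CPM over 12190 genes. Akp3 was closest to Papss2 (0.978), Sult6b2 (0.974) and Otop3 (0.972). Slc34a2 was closest to Xpnpep2 (0.964), Slc52a3 (0.957) and Anpep (0.956), and Alpi to Usp40, Ces2g (0.957 each) and Ahcyl1 (0.956). Likeness was weaker for Slc20a1 (Mycbp2 0.808, Spib 0.772, Gramd1a 0.764), Alppl2 (Eif4b 0.770, Pisd 0.749, Srd5a1 0.747) and Slc20a2 (Igfbp5 0.698, Col8a2 0.681, Slc24a3 0.680). Among the 6 themselves, Alpi and Akp3 were most alike (r = 0.900) and Slc34a2 and Akp3 most opposed (r = -0.909). The libraries of a section share its whole profile, so these values mostly carry the differences between sections.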

How the data were processed

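Polyadenylated RNA was made into strand-specific libraries with a directional kit, per the labels' protocols. The submitters' processing notes name STAR 2.7.7a, DESeq2 1.34.0, FastQC 0.11.5 and the build GRCm38, with no roles; the gene annotation is not given in the sources used here. The deposited files give unscaled counts of reads for each gene symbol, laid out as STAR writes gene counts, with no header. Column 4 was used, since its strand had 97.9% to 98.6% of stranded gene reads. Per library, between 18479722 and 27604041 reads were assigned to genes. The 4 leading entries hold reads that were unmapped, mapped to more than 1 place, in no gene or ambiguous, and were kept out of totals. Together these unassigned reads were between 19.5% and 31.7% over the 54 libraries. Reads mapping to more than 1 place are counted for no gene. Of 50-base stretches of transcript, 1.57% of Alpi, 1.57% of Akp3 and 0.0433% of Alppl2 also occur in the other 2 phosphatases, so reads there could be uncounted.

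The test was edgeR's quasi-likelihood F test (version 4.0.16 under R 4.3.3) after its expression filter (minimum count 10, minimum total 15) with TMM scaling; all 6 genes passed the filter in every fit. Adjusted p is Benjamini-Hochberg over every gene in the fit. There were 3 fits of 1 section each (lactation, sex), 3 of 1 state each (sections) and 1 of 34 female libraries (differences of lactation effects). SE is the log2 fold change divided by the square root of F. The 3 section fits and the fit of virgin females were run on simulated data, with 1 comparison each, and the other fits were not. Log2 CPM used a prior count of 2. Permutation tests used scipy 1.17.1. Alternatives were median-of-ratios scaling, library totals alone, DESeq2 1.42.0, no count filter, unstranded counts, all 54 libraries as labelled, a replicate block, 1 fit of 52 libraries and leaving out each library. The 2 libraries left out carry liver and duodenal transcripts against their labels. The named genes were the 6 in each comparison, up to 4 called genes with the largest change from each of 6 lists (the 2 most abundant where none was called), and the 3 genes most alike, among those whose mean log2 CPM reached 1. The enterocyte list leaves out 1 marker that is not reported here. The members and lists were chosen with earlier results of these data known. Promoters of 5 of the 6 genes were in the RefSeq table; those of the 3 phosphatases are shown.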

Additional observations from a re-analysis of the deposited data

Results flagged for a closer look

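In 3 of the 54 groups tested by gene, 1 library stood far from the others by Dixon's criterion; chance gives about 1 in 20. All 3 were Akp3. Replicate 2 of the lactating ileum had 18.3 CPM, against between 0.261 and 2.09 CPM in the other 5. Replicate 5 of the virgin male ileum had 1.48 CPM, against between 0.158 and 0.400 CPM in the others. Replicate 2 of the virgin female duodenum had 4795 CPM, against between 1157 and 2154 CPM in the others.

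The 2 left-out libraries also held reads of these genes (CPM by library totals). Replicate 3 of the lactating jejunum had 35.4 CPM of Slc20a1, 30.2 CPM of Slc20a2, 1971 CPM of Alpi and 1242 CPM of Akp3, each above the levels of the virgin jejunum libraries, and 22.9 CPM of Slc34a2. The other lactating jejunum libraries held at most 6.04 CPM of Akp3 and at least 361 CPM of Slc34a2. Replicate 3 of the lactating duodenum had 98.9 CPM of Slc20a2, against at most 27.7 CPM in the other lactating duodenum libraries. It held 1 read each of Alpi and Akp3 and none of Alppl2, with 1.72 CPM of Slc34a2. Both libraries went into no comparison other than the alternative with all 54 libraries as labelled, and each value is from 1 library with no replicate check.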

How the results depend on the processing

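Of 816 fold changes of the 6 genes under 8 alternatives, 784 kept their side of the threshold (32 of these, uncalled and within 2 SE of the reported value, changed sign), 13 lost and 10 gained a call, and 9 reversed; the causes were not tested unless stated. Library totals alone moved the median of all genes by over 0.1 in 9 comparisons (-0.24 to 0.40). There Slc20a2 reversed in virgin females (jejunum over duodenum -0.14, ileum over jejunum 0.27), lactating females (ileum over jejunum 0.10) and virgin males (jejunum over duodenum -0.092), members called were 0 for lactation in the jejunum, 2 for lactation in the ileum and 5 in ileum over jejunum of virgin males, and genes called were 8 for lactation in the duodenum, 575 in the ileum and 9 for the ileum minus jejunum effect. With the 2 left-out libraries, whose profiles go against their labels, Akp3 reversed for lactation in the jejunum (5.37), for ileum over jejunum in lactating females (-5.61), and for the effects jejunum minus duodenum (4.14) and ileum minus jejunum (-1.84). Slc20a2 in lactating jejunum over duodenum became -0.96 and the jejunal share of Alpi -6.09 points. Genes called were then 0 for lactation in the duodenum, 68 in the jejunum, 1747 and 2517 for jejunum over duodenum and ileum over jejunum in lactating females, with 1 and 0 members, and 0 for ileum minus jejunum. DESeq2 called 103, 517 and 872 genes for lactation in duodenum, jejunum and ileum (3 members), 8, 71 and 61 for sex, and 6, 50 and 49 for the 3 effect differences (jejunum minus duodenum, ileum minus jejunum with 1 member, ileum minus duodenum). With no count filter, 3 genes (duodenum) and 71 (jejunum, 0 members) were called for lactation; median-of-ratios scaling and unstranded counts each gave 3 in the duodenum. A fit of 52 libraries called 127 (duodenum) and 152 (ileum) for lactation, 10 for sex in the duodenum, and 15 and 27 for ileum minus jejunum and ileum minus duodenum.

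With the replicate block, 2 genes in the duodenum and 67 in the jejunum were called for lactation, 12 for ileum minus jejunum (1 member, Alppl2 at 1.86) and 6 for ileum minus duodenum; no member was called in the ileum (0), where Slc34a2 was 0.53 (adjusted p = 0.0708, edgeR). Libraries with 1 number did not deviate together in every pair of any comparison. The lowest r, -0.556, was between virgin females and males in the jejunum, which are different animals. Between sections of 1 state, the median r lay between -0.076 and 0.136, both in virgin females. These values cannot decide whether 1 number stands for 1 animal. The block changed no other member's call.

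Without 1 library, genes called for lactation were 1 to 21 (duodenum), 8 to 150 (jejunum) and 112 to 1184 (ileum), for sex 10 to 19 (jejunum) and 10 to 90 (ileum), and for effects 0 to 4 (jejunum minus duodenum), 1 to 12 (ileum minus jejunum) and 5 to 27 (ileum minus duodenum). Members called were 0 to 1 for lactation in the jejunum, 0 to 2 in the ileum, 1 to 2 for ileum over jejunum in lactating females and 0 to 1 for ileum minus jejunum. Akp3 ran from -2.14 to 0.36 for ileum over jejunum in lactating females and from -0.13 to 2.37 for ileum minus duodenum. Alppl2 and ileal Akp3 rest on few reads, as few as 12 and 2 a library.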
